A study of Mus musculus with 24 samples.

Results

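The module described here holds the genes whose array signal was higher in neuronal progenitors labelled knock-out for the repressor REST than in wildtype progenitors, with little difference between the same genotypes in embryonic stem cells. It counted 76 of the 19938 genes measured, of which 74 are annotated as protein coding. The genes were selected on the arrays themselves. The mean of the 3 RESTko progenitor arrays had to exceed that of the 3 RESTwt progenitor arrays by at least 0.7 on the log2 scale, with every RESTko array above every RESTwt array, and the difference in stem cells had to lie between -0.2 and 0.2. Before any names were set aside, 87 genes met these limits, which is 0.436% of all genes. Of these, 11 were left out because their symbols begin with one of 20 prefixes, mostly of ion channel, transmitter receptor and other gene families, and those 11 include Chrna4, Gria2, Kcnh2 and Th. The differences between genotypes in progenitors and in stem cells are therefore given below as descriptions, with no test.

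Mouse embryonic stem cells (ES) of the strain Black Agouti 129 were differentiated in vitro into neuronal progenitors (NP) and then terminal neurons (TN), and total RNA was hybridized to Affymetrix arrays. The 6 groups of 3 arrays were RESTko and RESTwt at ES, RESTko and RESTwt at NP, and RESTko and RESThet at TN, so the neurons were compared with heterozygous and not with wildtype cells. A second platform, with 6 arrays, followed wildtype cells on a mixed 129Sv-C57Bl/6 background with 2 arrays per stage and measured 72 of the 76 genes. The labels do not say whether the arrays of a group came from separate cultures, so p-values measure only the spread between these arrays. Arrays of one group correlated across genes with Pearson's r between 0.992 and 0.998.

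REST, also called NRSF, is a zinc finger repressor that binds a long DNA element named RE1 and, with corepressors that remove acetyl groups and methyl marks from histones, keeps neuronal genes low in stem cells and in cells outside the nervous system. Its level normally falls as progenitors become neurons, and many genes of synapses, vesicles, channels and axons carry RE1 elements. All 18 arrays hold a probe set for Rest, and it did not separate the genotypes in the direction of the labels at every stage. The log2 signal of Rest was 8.63, 8.53 and 8.66 in ES RESTko, against 8.95, 8.99 and 8.95 in ES RESTwt. It was 7.43, 7.40 and 7.57 in NP RESTko, against 7.48, 7.51 and 7.45 in NP RESTwt, so these groups overlap. In neurons it was 7.28, 7.38 and 7.46 in TN RESTko, against 7.02, 7.01 and 7.07 in TN RESThet, the opposite order. The labels do not give the deleted exon, so it is not known whether the probe set lies inside the deletion, and RESTko below stands for the arrays that carry that label.

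Because REST acts through a DNA element, the promoters of the members were searched for it. RefSeq promoter windows, 250 bases before to 50 bases after a start of a gene on GRCm38.p6, were found for 58 of the 76 genes. These genes had 83 windows, so a gene can have more than 1 start. The element searched on both strands was TTCAGCACC, any 2 bases, then GGACAGCG, with up to 3 mismatches over the 17 compared bases. It occurred in 4 of the 58 genes (6.90%), against 45 of 15614 genes with a window overall (0.288%). For comparison, it occurred in 3 of 32 genes (9.38%) of those higher in RESTko by at least 0.7 at both NP and ES, and in 0 of 61 genes higher at ES with an NP difference inside the same window of 0.2. The left block alone, TTCAGCACC with no mismatch, was in the windows of Syn1, Marchf4 and Cntnap5b (5.17%, against 0.493% of all genes with a window). The right block GGACAGCGC was in none of the 58 and in 0.679% of all genes with a window. The whole-element matches and the left-block match of Cntnap5b are shown along the strand of the gene with the 19 bases of the element in capitals, since these are the members for which the promoter itself resembles the REST element.
Syn1, chrX:20921132-20921150, 2 mismatches, same strand as the gene: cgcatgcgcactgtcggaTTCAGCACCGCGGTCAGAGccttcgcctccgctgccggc
Amer3, chr1:34579677-34579695, 3 mismatches, opposite strand: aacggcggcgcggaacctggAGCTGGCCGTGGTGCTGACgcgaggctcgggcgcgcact
Camk2n2, chr16:20621297-20621315, 3 mismatches, opposite strand: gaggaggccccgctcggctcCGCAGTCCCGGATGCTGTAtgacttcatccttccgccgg
Marchf4, chr1:72537142-72537160, 3 mismatches, opposite strand: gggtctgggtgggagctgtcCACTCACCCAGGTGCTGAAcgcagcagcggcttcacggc
Cntnap5b, chr1:99772385-99772403, 4 mismatches, opposite strand: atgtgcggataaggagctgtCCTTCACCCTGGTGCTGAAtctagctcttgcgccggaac
Counted from the start that set the window, the match of Syn1 begins at base -232 and that of Camk2n2 at -37. Those of Amer3 and Cntnap5b begin at -16 and that of Marchf4 at -1. The annotated genes Amer3 and Cntnap5b begin upstream of these starts, at bases 34578907 and 99772246 of chromosome 1. Their matches therefore lie inside the annotated genes. A match is a resemblance of letters and not a measured site, and a window without one says only that these letters are not in those bases. No binding data were used.

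In progenitors the differences ran between 0.70 and 2.01 with a median of 0.83, which is a median fold of 1.78 and a highest fold of 4.02. At least 2-fold differences were seen in 15 members, and 29 members lay under 0.8, close to the limit. The members nearest inside the limit were Ntrk2 (0.702), Aplp1 (0.707), Gata4, Cntnap5b and Asic2 (0.72 each), and the genes nearest outside it were Mgat5b (0.698), Cyp46a1 and Npas3 (0.69 each), B4galnt1 and Cdh22 (0.68 each). At the ES bounds, Aplp1 (0.196) and Tlcd3b (0.188) were just inside and Dpysl3 (0.201) and Hrh3 (0.203) just outside. At the other bound, Akap6 (-0.198) and Camk1g (-0.184) were just inside and Epha10 (-0.243) and Sparcl1 (-0.245) just outside. The ES limit separated the module from a larger group, since 106 further genes met the NP conditions and exceeded 0.2 at ES.

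**Figure D1:**
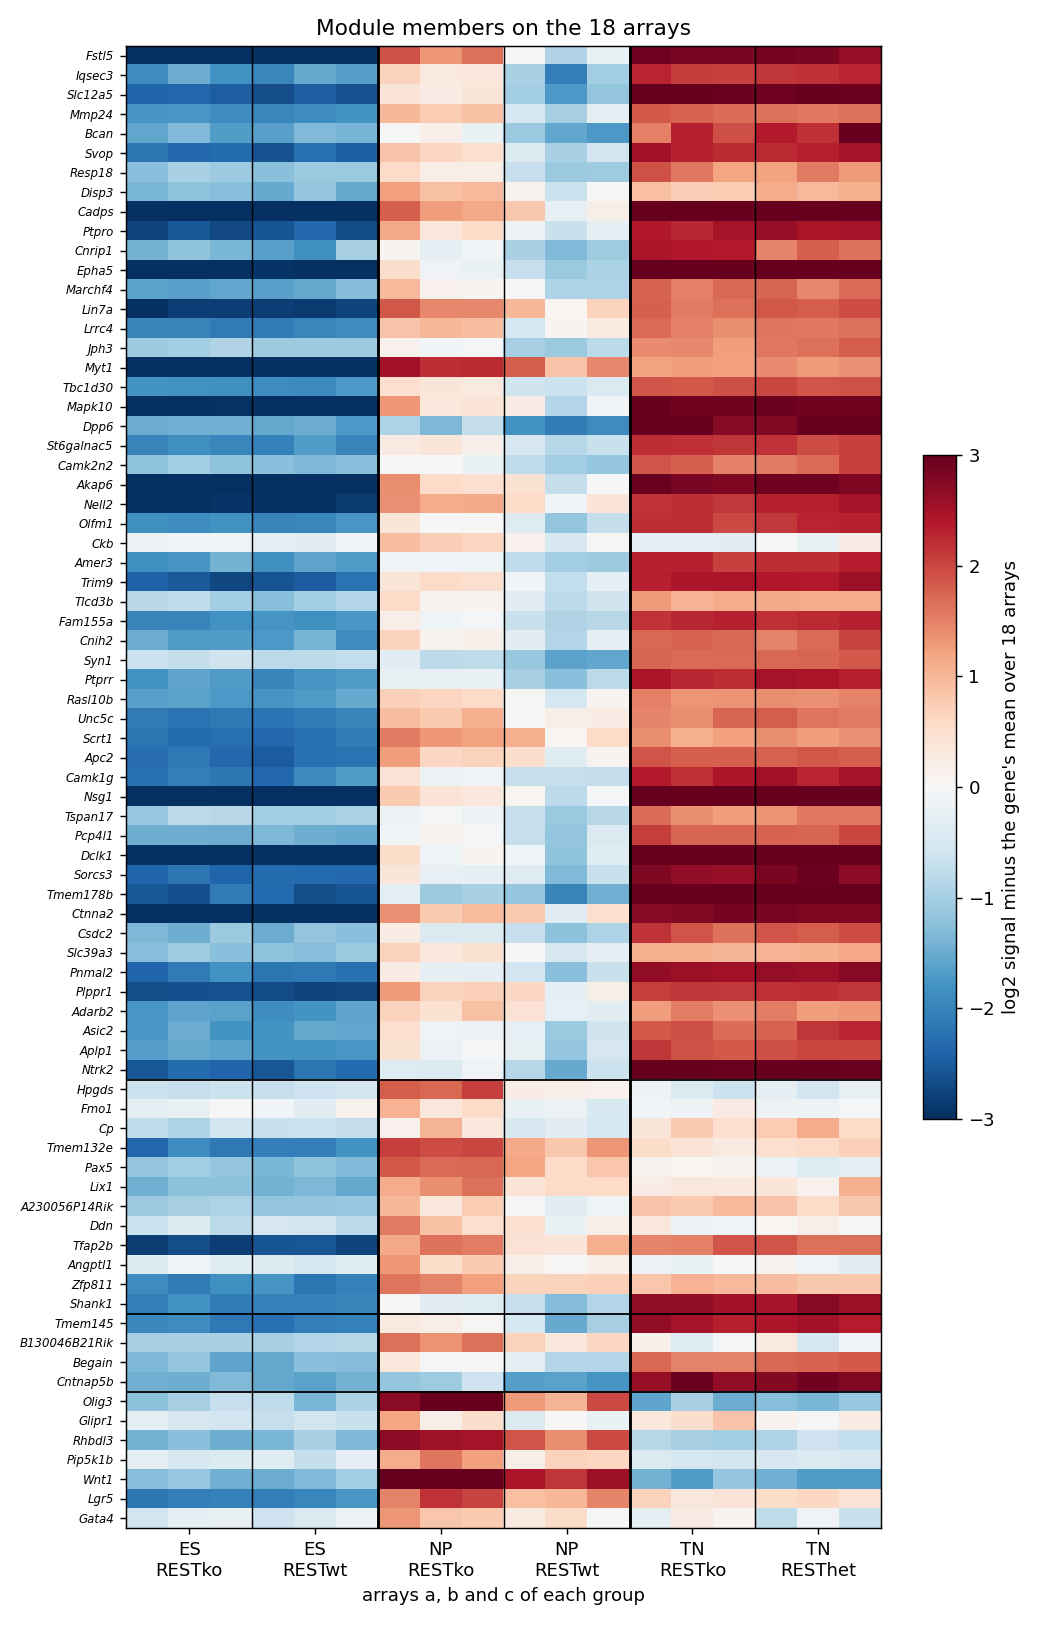
Signal of the 76 members (rows) on the 18 arrays (columns), as log2 signal minus the mean of the gene over all 18 arrays, with colours limited to -3 and 3. Rows are ordered by their step between NP and TN in the mixed-strain wildtype course, from the top 53 genes higher at TN, 12 without a call, 4 not measured there and 7 lower at TN, and within each block by the NP difference. In 52 rows every NP RESTko array lies below every TN array, a count not made over all genes. In the bottom block the NP RESTko means are the highest.

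The largest group by function was that of synapses and vesicles, with 16 members. Iqsec3, an exchange factor for Arf G proteins at inhibitory synapses, had log2 signals of 6.93, 6.52 and 6.57 in NP RESTko, against 5.27, 4.17 and 5.20 in NP RESTwt, a difference of 1.79. The nearest arrays of the 2 groups were 1.24 apart. Svop, a vesicle protein related to the SV2 transporters, had 7.89, 7.64 and 7.52 in NP RESTko, against 6.61, 6.04 and 6.46 in NP RESTwt. Cadps, which primes dense-core vesicles for release, had 9.50, 8.97 and 8.85 in NP RESTko, against 8.52, 7.47 and 7.90 in NP RESTwt. The Cadps groups were 0.33 apart at their nearest arrays for a difference of 1.15. Resp18, a protein of secretory granules, differed by 1.27, and Lin7a, a scaffold with a PDZ domain, by 0.99. Lrrc4, a postsynaptic adhesion protein that binds netrin-G2, had 7.16, 7.30 and 7.22 in NP RESTko, against 5.76, 6.37 and 6.59 in NP RESTwt. The scaffold Shank1, the AMPA receptor subunit partner Cnih2 and the endosomal protein Nsg1 lay lower in the list, with differences of 0.72, 0.81 and 0.76.

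Syn1, which codes for synapsin I on synaptic vesicles and whose promoter match is printed above, showed a course of its own. Its log2 signals were 7.37, 6.90 and 6.92 in NP RESTko, against 6.55, 6.09 and 6.14 in NP RESTwt. At ES they were 7.04, 6.98 and 7.09 in RESTko, against 6.88, 6.90 and 6.94 in RESTwt. The NP RESTko arrays were thus near the ES level, while the NP RESTwt arrays were below every ES array. Syn1 and Dpp6 were the 2 members whose RESTwt mean was at least 0.2 lower at NP than at ES. Conversely, every NP RESTwt array exceeded every ES array in 61 members, and every NP RESTko array did so in 75. The shares over all genes were not counted, and the selection favours high NP RESTko arrays. In 47 members the RESTwt mean was at least 1 unit higher at NP than at ES, and in 15 it was within 0.5.

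Of the channels and transporters, 6 were members after the named families were left out. Slc12a5, the neuronal potassium-chloride cotransporter KCC2 that keeps chloride low in neurons, had 7.78, 7.64 and 7.76 in NP RESTko, against 6.35, 5.68 and 6.21 in NP RESTwt, a difference of 1.65. The standard deviation of Slc12a5 was 0.076 in NP RESTko and 0.354 in NP RESTwt. Jph3, which ties the plasma membrane to the endoplasmic reticulum, had 6.55, 6.34 and 6.39 in NP RESTko, against 5.42, 5.30 and 5.64 in NP RESTwt. Dpp6, a partner of A-type potassium channels, differed by 0.93, the acid-sensing channel Asic2 by 0.72, the zinc importer Slc39a3 by 0.73 and Fam155a, a partner of the sodium leak channel NALCN, by 0.82.

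Adhesion, guidance, growth and trophic signalling took 14 members, and the gene with the largest difference of the module was among them. Fstl5, a secreted protein of the follistatin-like family, had 8.35, 7.76 and 8.09 in NP RESTko, against 6.42, 5.53 and 6.22 in NP RESTwt, a 4.02-fold difference. Bcan, the brain matrix proteoglycan brevican, had 6.27, 6.42 and 6.06 in NP RESTko, against 5.14, 4.71 and 4.53 in NP RESTwt. The NP RESTwt arrays of Bcan overlapped the ES arrays, whereas all its NP RESTko arrays were above every ES array. Epha5, an ephrin receptor of axon guidance, differed by 1.00, and the netrin receptor Unc5c by 0.78. The doublecortin-like kinase Dclk1, which binds microtubules, differed by 0.75, the neuronal catenin Ctnna2 by 0.74 and the BDNF receptor Ntrk2 by 0.70.

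Not all members are genes of neurons. Olig3, a helix-loop-helix factor of dorsal progenitors in the hindbrain and spinal cord, had 7.37, 8.07 and 8.03 in NP RESTko, against 5.94, 5.69 and 6.63 in NP RESTwt. Wnt1, a secreted ligand made at the dorsal midline and the midbrain-hindbrain boundary, had 8.37, 8.03 and 8.01 in NP RESTko, against 7.38, 7.09 and 7.52 in NP RESTwt. Pax5, a paired-box factor of that boundary and of B cells, had 7.61, 7.44 and 7.48 in NP RESTko, against 6.94, 6.31 and 6.57 in NP RESTwt. In all of these the groups do not overlap, as the selection required. The R-spondin receptor Lgr5 differed by 0.78, Tfap2b, an AP-2 factor of neural crest and interneurons, by 0.80, and Gata4, a factor of endoderm and heart, by 0.72. Scrt1, a neuronal repressor of the Snail family, and Myt1, a zinc finger factor of neuronal differentiation, differed by 0.78 and 0.95.

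Hpgds, the hematopoietic prostaglandin D synthase, had the largest difference among the enzymes. Its signals were 5.69, 5.59 and 5.95 in NP RESTko, against 4.09, 4.07 and 4.0 in NP RESTwt. The RESTwt arrays nearly coincide, with a standard deviation of 0.049, and the gap between the nearest arrays of the groups was 1.5. Mmp24, a membrane-bound matrix metalloprotease of neurons, had 7.65, 7.41 and 7.53 in NP RESTko, against 6.12, 5.65 and 6.36 in NP RESTwt. Ckb, the brain creatine kinase, had 11.54, 11.34 and 11.24 in NP RESTko, against 10.73, 10.14 and 10.65 in NP RESTwt, and on the 18 arrays it was highest in NP RESTko. The ubiquitin ligase Marchf4 differed by 1.00, and the sialyltransferase St6galnac5 by 0.92.

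The signalling enzymes and small G protein regulators held 8 members with NP differences of 0.76 to 0.95, among them Mapk10, the neuronal kinase JNK3 (0.93), and Akap6, an anchor of protein kinase A (0.90). The last 15 members are of other or little known function and differed by 0.72 to 1.20. Disp3, of the Dispatched family, had 7.0, 6.66 and 6.75 in NP RESTko, against 5.89, 5.13 and 5.78 in NP RESTwt, and Tmem145, a membrane protein, differed by 1.18. Ptpro, a receptor tyrosine phosphatase of the adhesion and growth group, differed by 1.05.

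**Figure D2:**
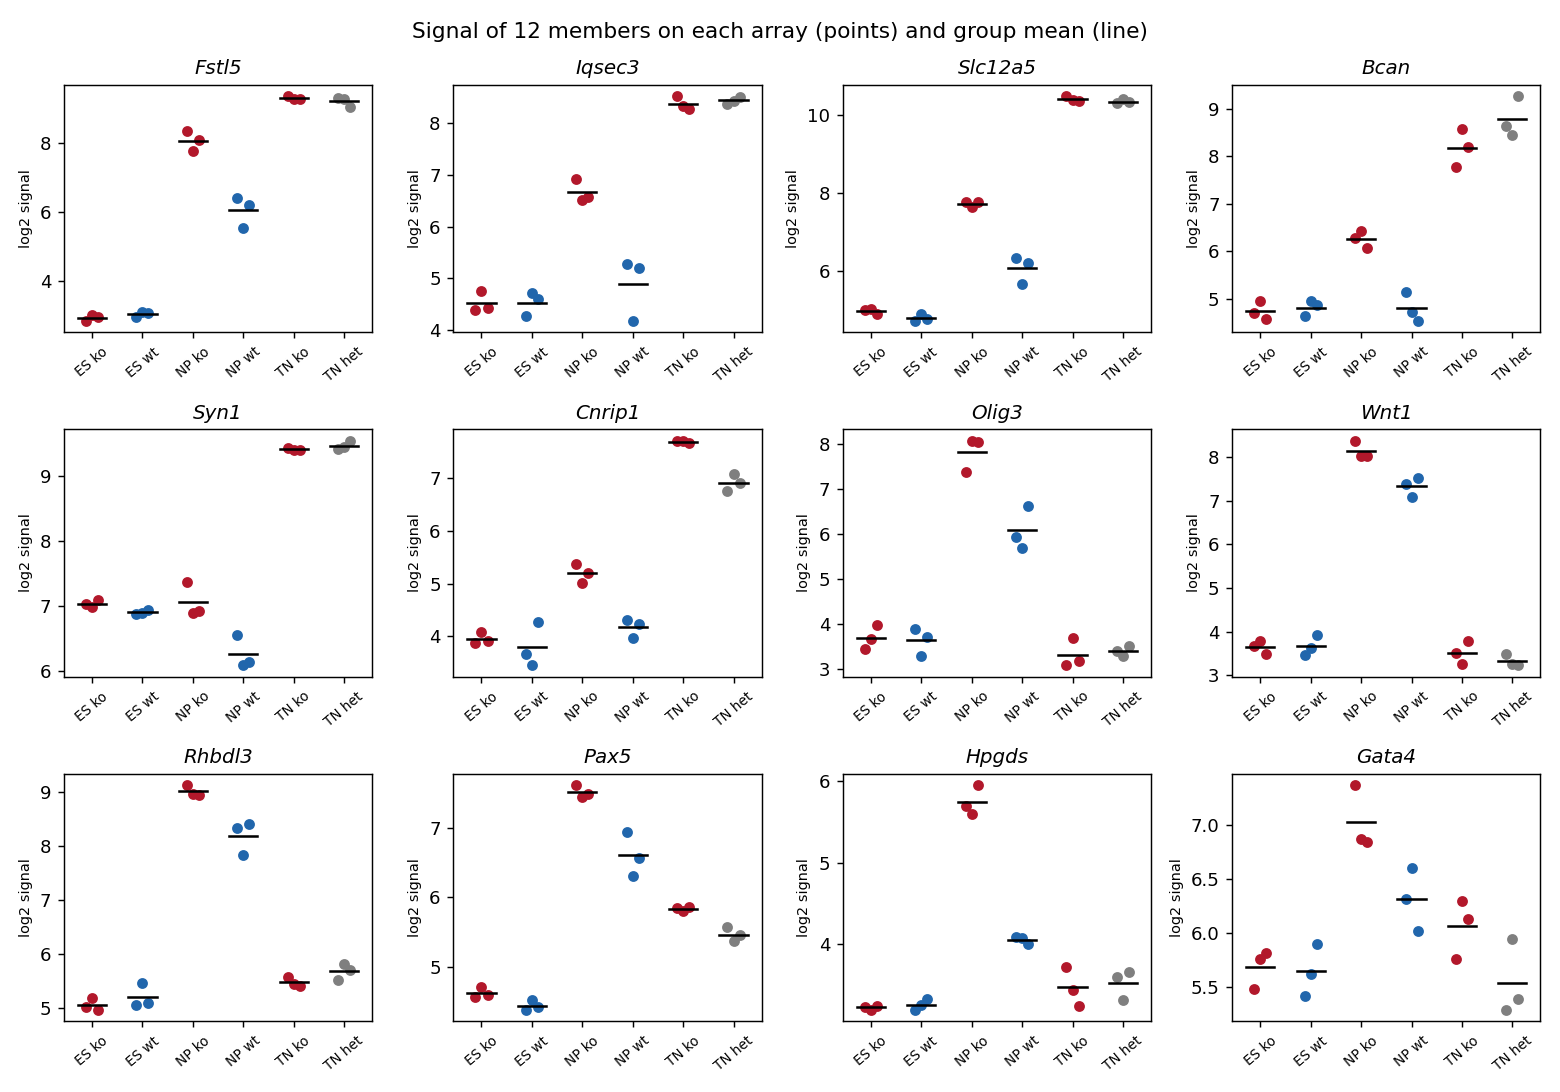
Log2 signal (vertical axis, a separate scale in each panel) of 12 members on each array (points) with the group mean (line). Groups run from ES to TN, with ko for RESTko (red), wt for RESTwt (blue) and het for RESThet (grey). At TN the signals of Fstl5, Iqsec3, Slc12a5, Bcan, Syn1 and Cnrip1 are above those at NP, whereas those of Olig3, Wnt1, Rhbdl3, Pax5, Hpgds and Gata4 are below the NP RESTko signals.

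The TN arrays had no part in the selection. In neurons 1 of the 76 members was called higher in RESTko than in RESThet cells (limma, adjusted p under 0.05) and 0 were called lower, against 0.356% and 0.802% of all genes. At an unadjusted p under 0.05 in limma there were 7 of the 76 members in all, beside 2342 of all 19938 genes. The gene called was Cnrip1, which binds the tail of the cannabinoid receptor CB1. In progenitors it had 5.37, 5.02 and 5.20 in RESTko, against 4.31, 3.97 and 4.23 in RESTwt. In neurons its log2 signals were 7.71, 7.70 and 7.66 in TN RESTko, against 6.75, 7.07 and 6.91 in TN RESThet, a difference of 0.78 ± 0.16 (SE, n = 3 arrays each, limma adjusted p = 0.0176). All TN RESTko arrays of Cnrip1 lie above all RESThet arrays, with a standard deviation of 0.027 in RESTko and 0.161 in RESThet. The call did not hold when RESTko replicate a, b or c or RESThet replicate a or c was left out (limma adjusted p of 0.0559 to 0.0736).

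The median TN difference of the members was -0.04, beside -0.02 over all genes. It was positive in 29 members and negative in 47. For 61 members the TN difference lay within 0.2 of zero, which is also where 83.9% of all genes lay. The 95% intervals stayed inside -0.5 to 0.5 in 54 members, and in 3 members they reached the member's own NP difference. The NP difference chose the members and is large by selection, so a TN interval below it does not by itself show a smaller effect. Fstl5 had 9.35, 9.28 and 9.26 in TN RESTko, against 9.30, 9.27 and 9.04 in TN RESThet, with a TN difference of 0.10 and a 95% interval of -0.26 to 0.46. Slc12a5 had 10.48, 10.38 and 10.36 in TN RESTko, against 10.30, 10.40 and 10.33 in TN RESThet, with a TN difference of 0.07 and an interval of -0.19 to 0.32. In both genes the groups overlap. For these genes the interval lies below the NP difference, but the NP and TN values have different controls, RESTwt and RESThet. The titles of the TN arrays also carry another leading number than those of the ES and NP arrays, and its meaning is not given. Stage, the allele that the heterozygous cells keep and whatever that number marks cannot be told apart in any comparison of NP with TN on the 18 arrays.

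The lowest TN difference belonged to Bcan, at -0.61 ± 0.21 (SE, n = 3 arrays each, limma adjusted p = 0.217), which did not pass the test. Its signals were 7.76, 8.56 and 8.20 in TN RESTko, against 8.64, 8.45 and 9.26 in TN RESThet, and they overlap. Gata4 had 5.76, 6.30 and 6.13 in TN RESTko, against 5.29, 5.95 and 5.39 in TN RESThet, a difference of 0.52 (limma adjusted p = 0.277). Pax5 had 5.85, 5.8 and 5.86 in TN RESTko, against 5.57, 5.37 and 5.45 in TN RESThet, a difference of 0.37 (limma adjusted p = 0.153). The TN arrays of Pax5 do not overlap, although the test across all genes did not call it. Every TN RESTko array was above every RESThet array in 4 members (Mmp24, Cnrip1, Pax5 and Glipr1), against 5.83% of all genes, and below in 8, against 10.2% of all genes. These shares are near the background. Among the 45 genes higher in RESTko by at least 0.7 at both NP and ES, 1 was called higher at TN and 0 lower, with a median TN difference of 0.04.

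**Figure D3:**
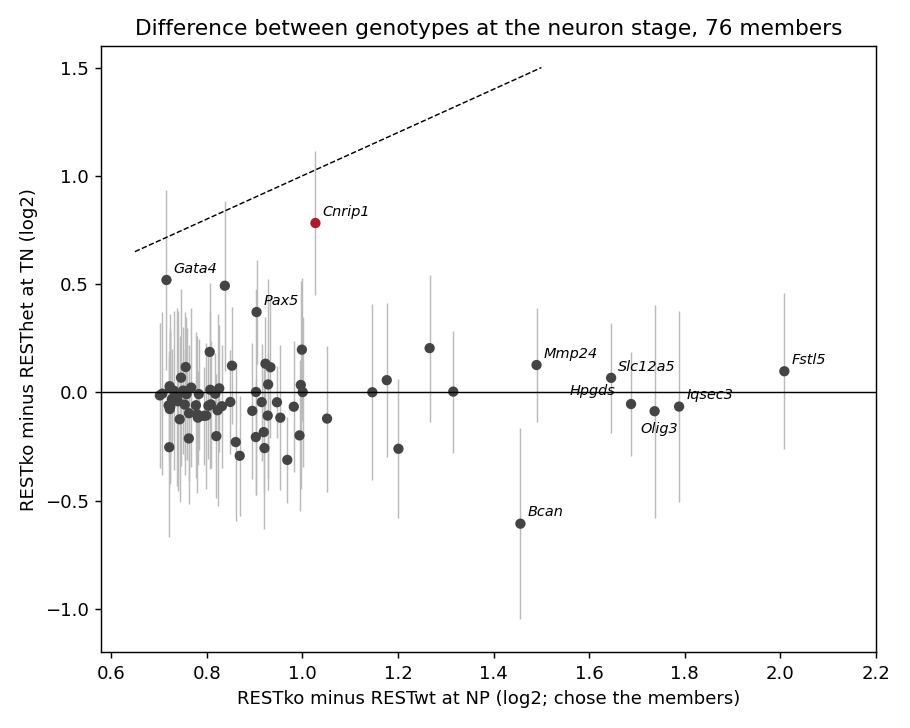
Difference between RESTko and RESThet at TN (vertical axis, log2, points with 95% intervals from limma) against the difference between RESTko and RESTwt at NP that selected the members (horizontal axis, log2). The dashed line marks equal differences, and the red point is Cnrip1, the member called at TN. The other 75 members have TN differences from -0.61 to 0.52.

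The mixed-strain wildtype course showed where these genes change in cells of another background, measured on another platform. In these cells, 46 of the 72 members measured were higher at NP than at ES and 1 was lower (limma, adjusted p under 0.05), against 19.9% higher and 19% lower among all genes. Between NP and TN, 53 members rose and 7 fell, against 21.7% and 29.1% of all genes. The median step was 0.75 from ES to NP and 2.93 from NP to TN, beside -0.01 and -0.09 over all genes. In the course 36 members rose at both steps, and 16 had no call at NP and rose at TN. Another 5 rose at NP and then fell, 5 rose at NP with no call after it, and 7 had no call at either step. The shares of all genes with these joint patterns were not counted. Of the other members, Gata4 and Glipr1 had no call at NP and fell at TN, and Aplp1, an amyloid precursor-like protein, fell at NP and rose at TN. Its signals in the course were 9.60 and 9.65 at ES, 8.05 and 8.19 at NP, and 12.11 and 12.03 at TN. In the RESTwt cells, measured on the other platform, Aplp1 went the opposite way between ES and NP. Its RESTwt mean was 6.98 at ES and 8.15 at NP, a rise of 1.16, and the cause of this disagreement was not tested.

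The largest steps into neurons were those of Epha5 (6.83), Syn1 (6.16), Dclk1 (5.81), Slc12a5 (5.75), Bcan (5.47), Camk2n2 (5.46), Resp18 (5.38) and Fam155a (5.04). Epha5 had 2.73 and 2.58 at ES, 2.78 and 2.95 at NP, and 9.92 and 9.48 at TN. In the course nearly all of its rise thus came after the progenitor stage (limma adjusted p = 3.2e-08 for TN against NP, 2 arrays each, and 0.402 for NP against ES). Its ES and NP signals there lie below the medians of the course arrays, 3.83 to 3.95. In the RESTwt cells, measured on the other platform, the mean of Epha5 already rose by 2.13, from 3.07 at ES to 5.19 at NP. In the course Slc12a5 rose at both steps, with 3.10 and 4.03 at ES, 5.09 and 5.81 at NP, and 11.35 and 11.05 at TN. The largest steps into progenitors were those of Rhbdl3 (5.02), Lin7a (4.75), Cadps (3.70), Tmem132e (3.30), Nsg1 (3.15), Lgr5 (3.01), Wnt1 (2.86) and Nell2 (2.80). Cadps had 2.76 and 3.04 at ES, 6.40 and 6.79 at NP, and 10.40 and 10.15 at TN, a climb of similar size at each step. Some of these steps rest on 1 of several probe sets. Other probe sets gave steps into progenitors of -0.05 for Tmem132e, 0.18 for Nsg1 and 0.07 for Lgr5, and the mean over probe sets gave 1.63, 1.67 and 1.54 for these genes. At the last step the mean over probe sets gave 3.43 for Dclk1.

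The 7 members that fell between NP and TN formed the other end of the module. Rhbdl3, a rhomboid-like membrane protein, had 3.72 and 4.08 at ES, 8.62 and 9.22 at NP, and 5.18 and 5.28 at TN, a fall of 3.69 ± 0.21 at the last step (SE, 2 arrays each, limma adjusted p = 9.7e-07). Wnt1 had 3.05 and 2.90 at ES, 5.87 and 5.8 at NP, and 2.67 and 3.08 at TN, and it fell by 2.96. In both genes every NP array was above every array of the stages before and after. Olig3 had 3.80 and 5.12 at NP and 2.66 and 2.53 at TN, and it fell by 1.86, or by 1.20 without NP replicate b of the course. Gata4 fell by 2.37, Pip5k1b, a kinase that makes the membrane lipid PIP2, by 1.66, and Lgr5 by 0.75. Glipr1 fell by 2.67 with a standard error of 0.92, and its arrays of one stage lay far apart, with 3.43 and 6.63 at ES and 4.75 and 6.75 at NP. On the 18 arrays the NP RESTko mean of each of these 7 genes was above both TN means.

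**Figure D4:**
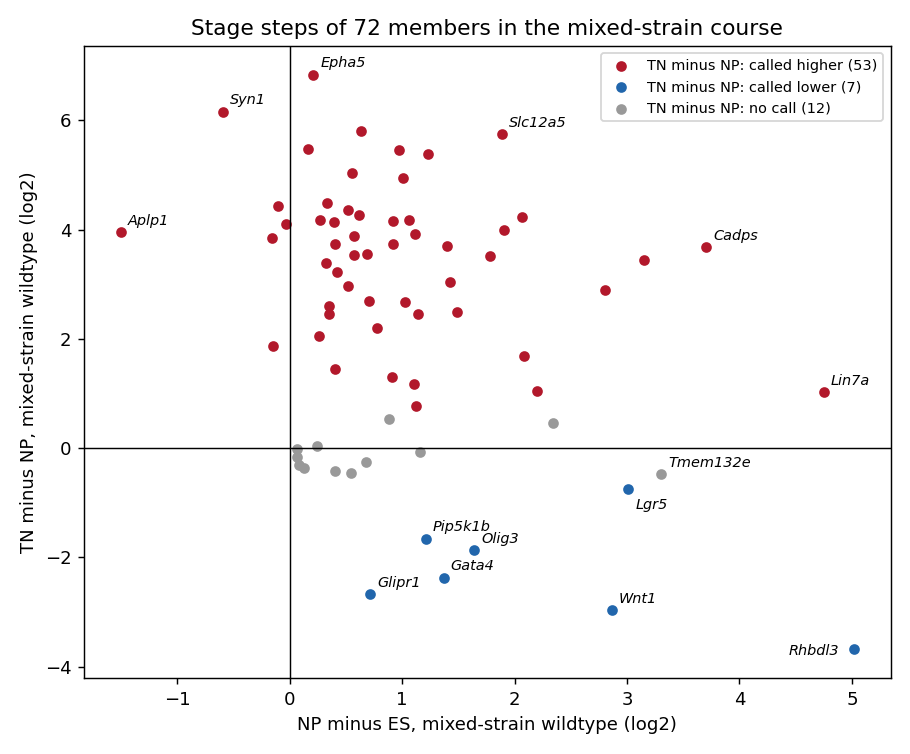
Step between ES and NP (horizontal axis, log2) against the step between NP and TN (vertical axis, log2) for 72 members in mixed-strain wildtype cells, as differences between means of 2 arrays. Red points rose, blue points fell and grey points were not called between NP and TN by limma. Most members lie above zero on both axes, and 7 lie low on the right, with Rhbdl3 at 5.02 and -3.69.

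The functional groups were drawn up after the members were known, so their counts in this course are descriptions, and differences between groups were not tested. Of all genes, 21.7% rose and 29.1% fell between NP and TN. At that step 13 of the 15 measured synapse and vesicle members rose and 0 fell, as did all 6 channel and transporter members and all 13 measured members of adhesion, guidance and growth. Of the 8 transcription factors and patterning genes, 2 rose and 4 fell, which is too few to read against 29.1%. Of the 8 kinases, phosphatases and small G protein regulators 7 rose and 1 fell, of the 9 enzymes and proteases 5 rose and 1 fell, and of 13 other measured genes 7 rose and 1 fell. In the course 46 members had several probe sets, and for 16 of them another probe set differed by at least 2 at the last step. For Ntrk2 the other probe sets ranged between 0.038 and 6.73. Another probe set was opposite in sign at that step for Adarb2, Mapk10 and Tfap2b, with a step smaller than 0.5 in each.

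On the 18 arrays the progenitor difference could be set beside the rise that the heterozygous neurons showed above RESTwt progenitors. That rise was at least 1 unit in 56 members, within 1 unit in 16, and a fall of at least 1 unit in 4. Over the 56 members, the NP difference was a median of 34.0% of the rise, with a range of 14.3% to 97.1%. For Fstl5 it was 63.8%, for Iqsec3 50.1%, for Slc12a5 38.6% and for Dclk1 18.7%. Disp3 had the highest share, with NP RESTko arrays of 7.0, 6.66 and 6.75 beside 6.89, 6.76 and 6.86 in TN RESThet. Every NP RESTko array was below every TN array in 52 members, and the NP RESTko mean was above both TN means in 19. Neither count was made over all genes. The percentages are descriptions, since the NP difference was the value that chose the members and it has NP RESTwt in common with the rise. In bulk RNA, more cells that express a gene and more RNA per cell cannot be told apart.

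Markers of neurons moved with the module in progenitors. Of 8 neuron markers (Tubb3, Map2, Rbfox3, Snap25, Syt1, Dcx, Elavl3 and Stmn2), 6 were called higher in NP RESTko than in NP RESTwt and 0 lower (limma, adjusted p under 0.05), with a median difference of 0.57, against 4.32% of all genes called higher and 3.71% called lower at NP. Their mean log2 signal was 9.11, 8.69 and 8.72 in NP RESTko, against 8.58, 7.80 and 8.34 in NP RESTwt. The mean over the 76 members was 6.98, 6.69 and 6.72 in NP RESTko, against 6.06, 5.59 and 5.93 in NP RESTwt. Inside each genotype the 3 arrays had the same order in both means, though RESTko replicates b and c nearly coincided. These arrays chose the members, and the order was not tested. RESTwt replicate b was the lowest of its group for 58 of the 76 members. RESTko replicate a was the highest of its group for 56 members. Without RESTwt replicate b the median NP difference was 0.74 and 44 members still reached 0.7, and without RESTwt replicate a it was 0.95. Progenitor markers did not separate in the same way, with 0 of 7 called in either direction at NP and a median difference of 0.19. Endoderm and epithelium markers were called lower in 4 of 9 and fibroblast markers in 3 of 7, and 0 of 8 blood and immune markers were called. At TN, 0 of the 8 neuron markers were called. At ES their mean was already higher in RESTko, at 6.31, 6.32 and 6.18, against 5.66, 5.64 and 5.69 in RESTwt. The module mean overlapped at ES, where the selection limited its difference. It was 4.31, 4.39 and 4.35 in ES RESTko, against 4.27, 4.35 and 4.39 in ES RESTwt. The part of these marker differences in the module was not tested.

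**Figure D5:**
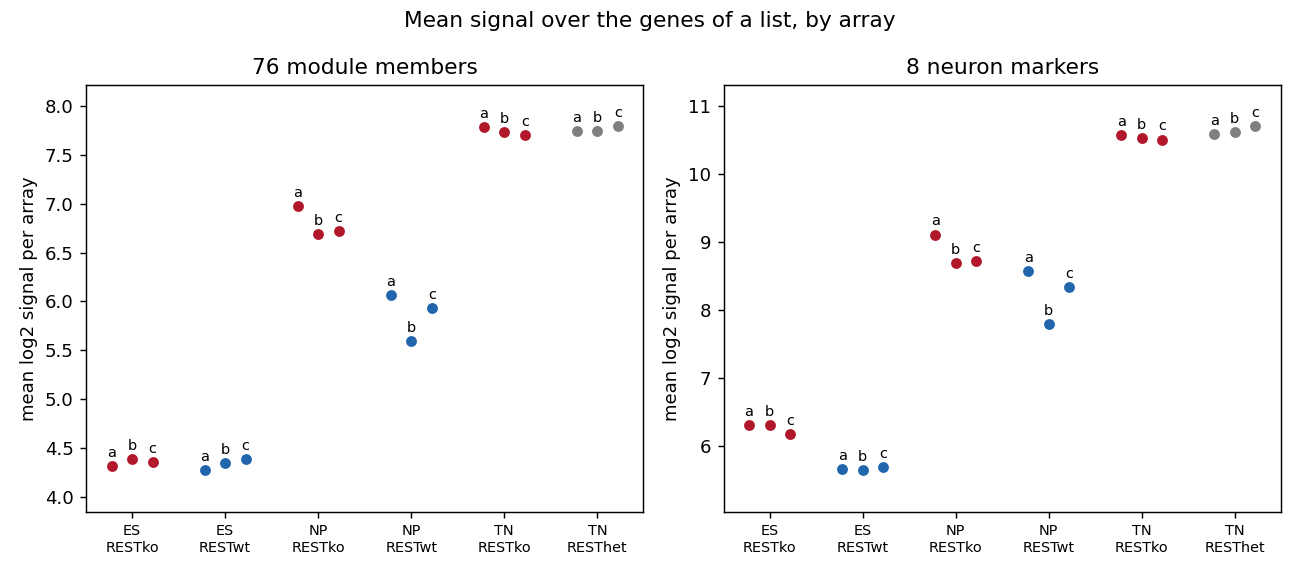
Mean log2 signal per array over the 76 members (left) and over 8 neuron markers (right), for replicates a, b and c of each group in order from ES to TN. At NP, RESTko replicate a is the highest array and RESTwt replicate b the lowest in both panels, and at TN the RESTko and RESThet arrays of the module lie between 7.70 and 7.79.

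Few of the 76 members belong to lists of neuronal genes drawn from general knowledge. The lists were chosen with earlier results of these data known, and genes with a left-out prefix could not be members. Of 89 measured genes on a list of RE1 targets, 4 were members, namely Syn1, Mmp24, Myt1 and Tmem145, beside 76 of all 19938 genes. Of the 85 that are not members, 50 were called higher at NP and 0 lower by limma, against 4.32% and 3.71% of all genes. Other lists held Dclk1 (neuronal cytoskeleton), Shank1 and Syn1 (vesicles and synapse), Cadps (dense-core vesicles), Unc5c and Epha5 (axon guidance), Scrt1 and Myt1 (neuronal transcription factors) and Gata4 (endoderm). Of the 17 endoderm genes measured other than Gata4, 0 were called higher at NP and 7 lower, against the same shares of all genes. The members had a median genomic span of 52291 bases, against 17705 over all genes, and 36.8% of them spanned at least 100 kb, against 11.5% of all genes. Among the 45 genes raised at both NP and ES the median span was 30747 bases and 17.8% reached 100 kb. By chromosome, 9 members lay on chromosome 1 (11.8%, against 5.65% of genes) and 8 on chromosome 10 (10.5%, against 4.71%). Chromosome 9 held 0 members and 5.86% of genes, and these shares were not tested. Wnt1, Ddn and B130046B21Rik lie close together, between bases 98789857 and 98810380 of chromosome 15, and Ddn and B130046B21Rik overlap.

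Some members rest on 1 of several probe sets of the 18 arrays. Another probe set of Disp3 gave an NP difference of 0.85, whereas those of Dpp6, Fam155a and Mapk10 gave 0.16, 0.12 and 0.34, below the limit used. The remaining 72 members had a single probe set with their symbol alone.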

How the data were processed

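The authors deposited log2 probe-set signals for 18 arrays on one Affymetrix platform and 6 on another. Per the submitters' processing notes these log2 values were made with oligo 1.14.0. How background was corrected and signals were normalized is not given in the sources used here. They were used as deposited. Of 35556 probe sets on the 18 arrays, 21789 carried a single gene symbol, updated by gene number to GRCm38.p6, and of 45101 on the 6 arrays 34958 did. A gene was represented by its single-symbol probe set with the highest mean, which gave 19938 and 18194 genes.

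Each table was fitted separately in R 4.3.3 by limma 3.58.1, using lmFit and eBayes with one mean per group and all arrays of the platform. The test is two-sided, its p was adjusted across every gene in the table (Benjamini-Hochberg), and genes under 0.05 were called. The fits were tested on simulated data. The selection of the 76 members and its limits are in the text. The precision is limited by the number of arrays.

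The members and the gene lists were chosen with earlier results of these data known. The genes named are Rest, the 20 members with the largest NP difference, those nearest each limit of the selection, up to 8 called in each direction at TN and at each step of the course, members of the gene lists and members with a promoter match. Members named outside this rule in the account of a functional group were chosen after their values were seen. Members were not ranked by their stem cell level, since signals of different probe sets are not comparable. Replicate letters were not taken as pairs: the deviations of same-letter TN arrays correlated with r of -0.14, 0.04 and 0.08. Promoter sequences are from RefSeq. Other settings tried were a replicate block, the compared groups alone, trend and robust variance, leaving out the 30% of genes with the dimmest signal, the mean over probe sets, quantile normalization, other limits of the selection, and omission of each array in turn.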

Additional observations from a re-analysis of the deposited data

Results flagged for a closer look

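In 8 members every TN RESTko array was below every TN RESThet array, although every NP RESTko array was above every NP RESTwt array. The NP direction was fixed by the selection, the difference between the stages was not tested, and 8 of 76 lies near the 10.2% of all genes whose TN RESTko arrays were all lower. The TN differences were -0.31 for Jph3, -0.29 for Ckb, -0.26 for Disp3, -0.21 for Begain, -0.21 for Nell2, -0.20 for Lin7a, -0.12 for Myt1 and -0.077 for Plppr1 (log2). None of the 8 passed limma's test at an adjusted p under 0.05. Jph3 had 7.83, 7.86 and 7.66 in TN RESTko, against 7.99, 8.07 and 8.23 in TN RESThet, with an adjusted p of 0.148 in limma.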

How the results depend on the processing

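The number of members depended on the limits of the selection. With an NP limit of 0.5 it was 181, with 1.0 it was 15, and with an ES window of 0.1 it was 46. With a window of 0.3 it was 95, with the mean over probe sets 75, with quantile normalization 69, without the dimmest 30% of genes 70, and with no names left out 87 (a setting chosen after seeing the data). Omission of 1 array at a time gave 52 members (without NP RESTwt replicate b, 44 of them shared with the module) to 129 (without NP RESTwt replicate a, 74 shared).

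At TN, 1 member was called higher as reported. It was 0 with a replicate block on the TN arrays alone, 0 with an ES window of 0.1, 4 with an NP limit of 0.5, and 0 to 1 when an array was omitted. The number lower at TN was 1 with an NP limit of 0.5 and 0 in every other setting run. Cnrip1 had a limma adjusted p of 0.0585 with the replicate block, and 0.0102 to 0.0736 over all its settings. Without TN RESThet replicate b it was still called, at 0.0229. Over all genes, 71 were called higher and 160 lower at TN, against 16 and 34 when the TN arrays were fitted alone and 9 and 18 with the replicate block. When an array was omitted the counts were 40 to 63 and 77 to 147.

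In the course, 1 member was called lower at NP, and 2 were with the dimmest 30% left out, with trend and robust variance, with quantile normalization and with the replicate block, and 1 to 2 when an array was omitted. The other counts of the course stayed within 1.5 times the reported ones. Of the 25 calls of single members, 262 of 275 other settings kept the call, none reversed, and 13 lost it, namely 6 for Cnrip1, 4 for Glipr1, 2 for Gata4 and 1 for Lgr5. The cause was not tested. Without NP replicate b of the course Glipr1 fell by 1.67 (limma adjusted p 0.239) and Olig3 by 1.20 (still called). With the mean over probe sets Glipr1 fell by 1.69 and Lgr5 by 0.46 at the last step, both still called.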

Other observations

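Shank1, the postsynaptic scaffold, had no call at either step of the mixed-strain course, with 3.45 and 3.43 at ES, 3.62 and 3.50 at NP, and 3.01 and 3.40 at TN. All these signals lie below the medians of the 6 arrays, 3.83 to 3.95. Whether this probe set can report a rise was not tested. On the 18 arrays, whose probe sets are others, it had 8.46, 8.46 and 8.33 in TN RESTko and 8.27, 8.53 and 8.39 in TN RESThet, beside 3.78, 3.79 and 3.82 in ES RESTwt. Pax5 and Hpgds, singled out after their values were seen like Shank1, were also without a call at either step of the course. Both were higher at NP than at ES on the 18 arrays, and their course signals also lie below those medians. The mirror of the module, with the same limits in the other direction, held 62 genes that were lower in NP RESTko and within 0.2 at ES.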
